A study of Mus musculus with 3 samples.

Results

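Capillary endothelial cells (ECs) that carried *Aplnr* or *Kit* together with high *Dll4* were examined in scRNA-Seq libraries of the mouse lung. The set held 127 of the 7642 lung cells that passed the cell filter, with 51 cells from mouse 2, 28 from mouse 3, and 48 from mouse 4. Members were chosen from the raw UMIs (molecules counted once each) of every cell. A cell had to hold at least 4 UMIs of *Cdh5* and *Cldn5* together, 0 UMIs of the leukocyte gene *Ptprc*, at most 5 UMIs of *Col1a1* and *Col1a2*, and less than 2% of its UMIs from *Sftpc*. It also had to hold at least 2 UMIs of *Aplnr* and *Kit* together, at most 1 UMI of *Ednrb*, *Apln*, and *Fibin* together, at most 1 of *Gja5*, and at most 1 of *Slc6a2* and *Nr2f2* together. These limits formed the capillary gate, which 358 of 883 filtered ECs passed. The 127 gate cells with at least 2 *Dll4* UMIs are called *Dll4*-high here, the 142 gate cells with 0 *Dll4* UMIs are called *Dll4*-zero, and the 89 cells with 1 UMI lay between them.

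All cells came from 3 wild-type C57BL/6 mice of 1 group, kept in room air (RA) from day 1 to day 14 of life and taken at P14. The whole lung was dissociated, no EC sort was described, and each mouse gave 1 library, so the mouse is the replicate and the comparisons are between cells of the same animals. The libraries held 23744510, 22476491, and 25192427 UMIs in mice 2, 3, and 4, over 9644 deposited cells. Between libraries, 5 cell barcodes were shared by mice 2 and 3, 2 by mice 2 and 4, and 5 by mice 3 and 4, of which 1 belonged to a *Dll4*-high cell.

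DLL4 is a transmembrane ligand of the Notch receptors. When it binds Notch on a neighboring cell, the receptor is cleaved, and its intracellular part enters the nucleus, joins RBPJ, and switches on genes of the HEY and HES families. In growing vessels DLL4 is known from tip cells and from arteries, where it restrains sprouting and accompanies arterial identity. The capillaries of the alveolus hold 2 known kinds of EC. One carries *Aplnr*, *Kit*, and *Gpihbp1* and is regarded as the general capillary cell that divides and renews the bed, and the other carries *Car4*, *Ednrb*, and *Apln* and lies along the gas exchange surface.

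The *Dll4* UMIs that chose the members were few per cell. Among the 127 cells the median was 3 and the highest 14, and 44 cells (34.6%) held exactly 2. In counts per 1e+06 UMIs (CPM), *Dll4* (ENSMUSG00000027314, chr2:119325784-119335962, plus strand, mm10) stood at 310, 341, and 427 CPM in *Dll4*-high cells of mice 2, 3, and 4. The cells with 1 UMI had 137, 148, and 136 CPM. ECs with at least 2 UMIs of *Gja5*, the connexin 40 gene of arterial ECs, had 485, 470, and 480 CPM and therefore lay above the *Dll4*-high capillary cells in every mouse. ECs gated on *Ednrb*, *Apln*, and *Fibin* (*Car4*-type, 101 cells) averaged 136 ± 10.3 CPM (SD, n = 3), and ECs gated on *Slc6a2* and *Nr2f2* (venous, 122 cells) averaged 39.4 ± 9.06 CPM. The antisense gene *Gm14207* overlaps *Dll4* on the other strand, and the sources used here do not state whether the counting used strand. These values, like all values of the gate genes, describe the choice of cells and were not tested.

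*Dll4*-high cells were not rare in the gate. They made up 34.0% of gate cells in mouse 2 (exact 95% binomial interval 26.5% to 42.2%), 38.9% in mouse 3 (27.6% to 51.1%), and 35.3% in mouse 4 (27.3% to 43.9%), a mean of 36.1% ± 2.53% (SD, n = 3). The intervals of the 3 mice overlapped. They cover counting error only.

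The label was checked against its markers. *Aplnr*, the apelin receptor, stood at 582, 768, and 515 CPM in *Dll4*-high cells and at 778, 727, and 831 CPM in *Dll4*-zero cells. *Kit*, the stem cell factor receptor, stood at 795, 800, and 760 CPM against 984, 979, and 969 CPM. Both genes belong to the gate, whose limit in raw UMIs asks for a higher CPM in shallower cells, so these levels describe the choice and check nothing. *Gpihbp1*, which carries lipoprotein lipase to the capillary lumen and was not part of the gate, was at 1169, 797, and 789 CPM against 1028, 891, and 807 CPM, with overlapping groups. Its log2 fold change was 0.02 (adjusted p = 0.99, from the test described below). *Car4* was at 97.1 ± 26.4 CPM in *Dll4*-high cells against 1803 ± 340 CPM in the *Car4*-type set, and *Pecam1* was at 1609 ± 109 CPM against 1601 ± 65.7 CPM in *Dll4*-zero cells. *Gpihbp1*, the 1 marker of the label outside the gate, was thus present, and *Car4* was low. The longer list of *Aplnr*-type capillary genes, given below, had 2 higher and 1 lower of 17 tested, with a median log2 fold change of -0.22.

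**Figure D1:**
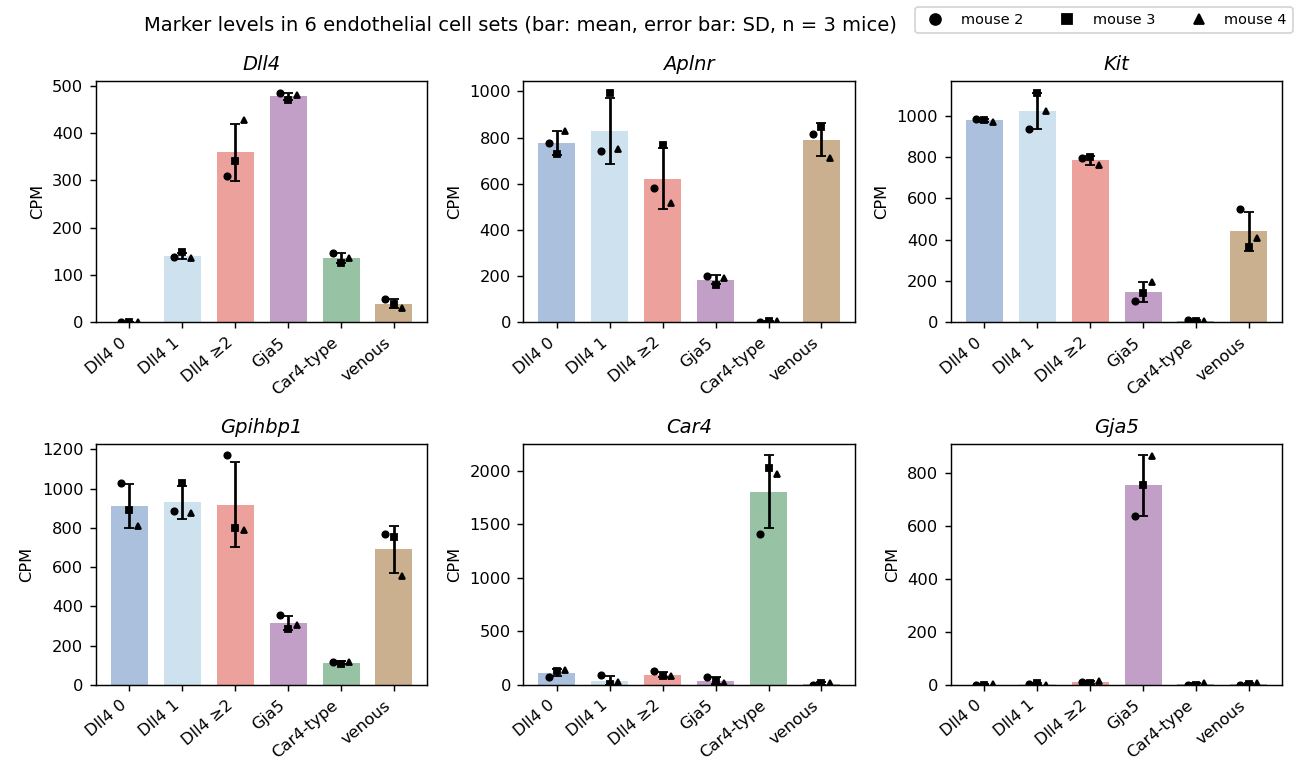
CPM (y axis) of *Dll4*, *Aplnr*, *Kit*, *Gpihbp1*, *Car4*, and *Gja5* in 6 EC sets (x axis), with 1 point per mouse, the mean as a bar, and the SD as an error bar (n = 3). *Dll4* is higher in *Gja5* cells (478 CPM) than in *Dll4*-high capillary cells (359 CPM), while *Gpihbp1* averages between 909 and 929 CPM in the capillary gate sets and lower in *Gja5* cells and *Car4*-type cells.

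A choice by raw UMIs favors deeper cells. The median UMIs per cell averaged 9089 ± 992 over the 3 mice in *Dll4*-high cells, 6904.5 ± 658 in cells with 1 *Dll4* UMI, 6867 ± 836 in *Dll4*-zero cells, and 8553 ± 815 in *Gja5* cells. Median genes per cell were 3552 ± 291 in *Dll4*-high and 2914 ± 156 in *Dll4*-zero cells, and the median mitochondrial share was 6.49% ± 0.265% against 6.78% ± 0.762%. A *Dll4*-zero cell may also hold *Dll4* RNA that was not captured. The test of *Dll4*-high against *Dll4*-zero cells was therefore run again on cells of the 2 sets paired within each mouse by their UMIs (35, 21, and 47 pairs), for the genes that still had enough counts.

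*Dll4*-high and *Dll4*-zero capillary cells differed in a limited set of genes. Of 6384 genes tested on sums per mouse and set, 69 (1.08%) were higher and 55 (0.862%) were lower in *Dll4*-high cells at an adjusted p under 0.05 (edgeR quasi-likelihood test, Benjamini-Hochberg adjustment), 124 or 1.94% in all. The higher genes were led by *Hey1*, *Cxcr4*, *Gja1*, *Mecom*, *Fmo2*, and genes of mitosis, and the lower genes by *Vegfc*, *Sema3c*, *Fbln2*, *Slc6a6*, and *Adamts1*. The median log2 fold change of all tested genes was -0.00, and 879 genes (13.8%) had groups that did not overlap. With the paired cells, 48 genes were higher and 44 lower, and 78 of the 108 calls that could be fitted again were kept. Of the genes named below, thinning every cell to 3000 UMIs ended the calls of *Plvap*, *Cyp4b1*, *Prx*, *Ptprb*, *Eng*, *Unc5b*, *Ccnd1*, *Mef2c*, and *Emcn*. A limit of 10% mitochondrial UMIs ended those of *Cxcl12*, *Unc5b*, *Ptprb*, and *Ccnd1*. The p-values, apart from a fit with the mouse as block, treat the sums as unpaired, though both sets came from the same 3 mice. They measure the spread between sums, which holds the sampling of cells as well as the 3 animals. With the mouse as block, the adjusted p (edgeR) was 1.07e-06 for *Hey1*, 2.14e-06 for *Cxcr4*, and 0.000201 for *Mki67*, larger than the unpaired values given below.

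**Figure D2:**
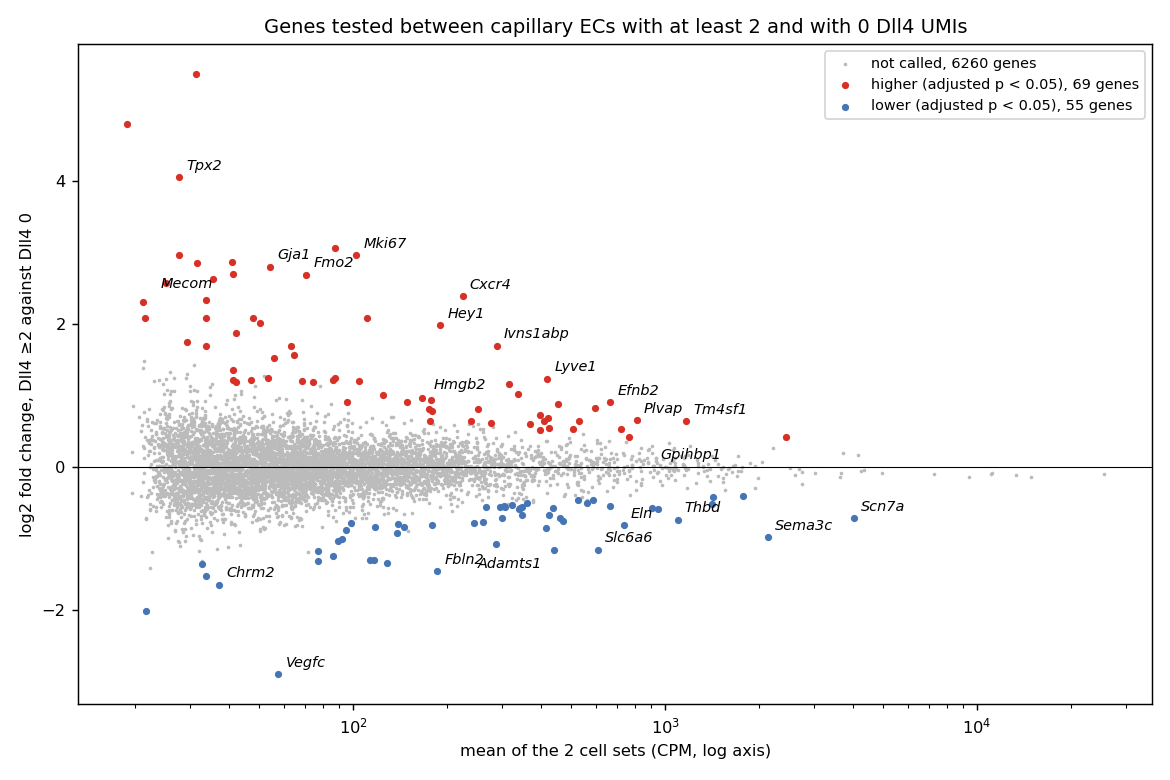
Log2 fold change of *Dll4*-high against *Dll4*-zero capillary cells (y axis) against the mean CPM of the 2 sets (x axis, log scale) for the 6384 genes tested, with 69 higher genes in red and 55 lower genes in blue. *Hey1* and *Cxcr4* stand above 1.9 on the log2 scale among genes of moderate level, and *Vegfc* is the lowest point.

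*Hey1* was the Notch target that differed most. *Hey1*, a transcriptional repressor induced directly by Notch (ENSMUSG00000040289, chr3:8663359-8667256, minus strand), stood at 274, 306, and 333 CPM in *Dll4*-high cells and at 69.6, 71.1, and 83.3 CPM in *Dll4*-zero cells. Every *Dll4*-high sum was above every *Dll4*-zero sum. The fold was 3.96 (log2 1.99, SE 0.186, adjusted p = 5.95e-09, edgeR). At least 1 *Hey1* UMI was found in 75.6% of *Dll4*-high cells, 56.2% of cells with 1 *Dll4* UMI, and 31.7% of *Dll4*-zero cells. In B cells, which should lack it, the share was 0.336% of 1787 cells at a median of 4039 UMIs, against 8421 UMIs in *Dll4*-high cells. Thinned to 3000 UMIs per cell, the shares were 50.7% in *Dll4*-high and 19.8% in *Dll4*-zero cells.

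The rest of the Notch pathway differed less. The gene lists used here and below were chosen with earlier results of these data known. Of 11 Notch targets tested, 3 were higher and 0 lower, beside 1.08% higher and 0.862% lower over all 6384 genes. Their median log2 fold change was 0.41 against -0.00 over all genes. *Efnb2*, the ephrin-B2 ligand of arterial ECs (chr8:8617434-8661242, minus strand), was at 717, 831, and 1068 CPM against 477, 481, and 419 CPM, without overlap. Its fold was 1.88 (log2 0.91, SE 0.135, adjusted p = 2.65e-05). *Ccnd1*, the G1 cyclin, was the other call at a log2 fold change of 0.62 (adjusted p = 0.0433), with overlapping groups. The call was lost without mouse 2, without mouse 3, with paired cells, and with DESeq2 (adjusted p = 0.1995). *Nrarp*, a feedback inhibitor of Notch, was at 64.6, 49.98, and 60.7 CPM against 27.3, 32.8, and 26.0 CPM (log2 1.07, adjusted p = 0.0692), higher in 3 of 3 mice but not past the threshold. *Hes1* was at 172, 212, and 177 CPM against 204, 180, and 187 CPM (log2 -0.08, adjusted p = 0.943).

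Among receptors and other ligands of the pathway there were no calls, in lists too short to stand apart from the 1.94% of all genes that were called. Of 3 other ligands tested (*Dll1*, *Jag1*, and *Jag2*) and 16 receptors and modulators, 0 were called in either direction by edgeR or DESeq2 (which gave an adjusted p for 11 of them), and 1 ligand (*Jag1*) and 1 receptor (*Notch1*) had an unadjusted p under 0.05. The receptors *Notch1* and *Notch4* had log2 fold changes of 0.37 (adjusted p = 0.26) and 0.32, and *Jag1*, the ligand that competes with DLL4 in vessels, had -0.77 (adjusted p = 0.277). The median over the receptors and modulators was 0.05.

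Genes of arteries held the most calls of any list, and they split. Of 18 arterial genes tested, 7 were higher, 3 were lower, and 8 were not called, with a median of 0.31. Over all 6384 genes, 1.08% were higher and 0.862% lower. Besides *Hey1* and *Efnb2*, the higher genes were *Cxcl12*, *Sema3g*, *Tm4sf1*, *Ltbp4*, and *Unc5b*. *Cxcl12*, the chemokine that binds CXCR4, was at 670, 672, and 1000 CPM against 514, 257, and 471 CPM (log2 0.83, adjusted p = 0.00136). *Sema3g*, a secreted semaphorin of arterial ECs, was at 496, 550, and 733 CPM against 293, 312, and 341 CPM (log2 0.89). The groups of neither gene overlapped, and *Cxcl12* lost its call with DESeq2 (adjusted p = 0.346) and at most 10% mitochondrial UMIs (adjusted p = 0.0584). *Unc5b*, a netrin receptor found on tip and arterial ECs, had a log2 fold change of 1.25 (SE 0.301, adjusted p = 0.0132) with overlapping groups, and its call was lost without mouse 3 or without mouse 4. *Tm4sf1* and *Ltbp4* lost theirs without mouse 4 and with DESeq2 (adjusted p = 0.346 and 0.0675), and *Ltbp4* fell from a log2 fold change of 1.01 to 0.48 with *Dll4* of at least 3 UMIs (adjusted p = 0.512). The lower arterial genes were *Vegfc*, *Fbln2*, and *Eln*, and the last was lost without mouse 2.

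*Cxcr4* and *Gja1* had among the highest folds outside mitosis. *Cxcr4*, the CXCL12 receptor, which tip cells and remodeling arteries carry (chr1:128588199-128592293, minus strand), was at 266, 397, and 449 CPM against 59.6, 126, and 46.9 CPM, a fold of 5.24 (log2 2.39, SE 0.233, adjusted p = 9.19e-09). The lowest *Dll4*-high sum was more than the highest *Dll4*-zero sum. At least 1 UMI was found in 78.0% of *Dll4*-high and 16.2% of *Dll4*-zero cells, and thinned to 3000 UMIs per cell in 52.6% and 8.68%. In venous ECs the share was 5.74% at a median of 8350 UMIs. B cells, which carry *Cxcr4* themselves, give no background for it. *Gja1*, the gap junction protein connexin 43 (chr10:56377330-56402513, plus strand), was at 86.6, 100, and 87.4 CPM against 9.94, 38.3, and 2.60 CPM (log2 2.80, SE 0.390, adjusted p = 8.10e-06). *Mecom*, a zinc finger transcription factor, was at 63.1, 43.7, and 102 CPM against 2.48, 21.9, and 13.0 CPM (log2 2.70, adjusted p = 0.000128). *Fmo2*, a flavin monooxygenase abundant in the lung, was at 110, 96.8, and 163 CPM against 17.4, 16.4, and 20.8 CPM (log2 2.69, adjusted p = 2.61e-07). The groups of all 4 genes were apart, and each stayed called with the paired cells. Of 13 tip cell genes tested, 2 were higher (*Cxcr4* and *Unc5b*) and 0 lower, beside 1.08% and 0.862% over all 6384 genes.

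Arterial genes lay at different distances below their levels in *Gja5* cells. *Efnb2* averaged 872 ± 179 CPM in *Dll4*-high and 1551 ± 81.6 CPM in *Gja5* cells, while *Mgp*, *Hey2*, and *Fbln5* were further below. *Mgp*, a matrix protein of arterial walls and ECs, was at 17.6, 15.6, and 72.8 CPM in *Dll4*-high cells and at 4484, 5626, and 6347 CPM in *Gja5* cells. *Hey2*, the HEY family member of arteries, averaged 1.30 ± 1.22 CPM against 68.7 ± 5.64 CPM. *Fbln5* averaged 35.4 ± 23.7 CPM against 2227 ± 45.3 CPM. *Gja5* itself was held to at most 1 UMI per cell by the gate and summed to 16 UMIs over the 127 cells.

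*Lyve1* and *Plvap* were higher in *Dll4*-high than in *Dll4*-zero cells. *Lyve1*, a hyaluronan receptor (chr7:110850607-110863239, minus strand), was at 562, 506, and 711 CPM against 286, 202, and 240 CPM (fold 2.36, log2 1.24, SE 0.151, adjusted p = 5.16e-07). The groups did not overlap. *Lyve1* also marks lymphatic ECs, and the sum of 8 lymphatic features (7 genes, *Ccl21a* being listed under 2 gene IDs) was 716 ± 79.3 CPM in *Dll4*-high against 326 ± 27.1 CPM in *Dll4*-zero cells. Of the 1010 UMIs in that sum, 838 were *Lyve1* and 165 *Flt4*. *Prox1*, the transcription factor that defines lymphatic ECs, had 3 UMIs in *Dll4*-high and 0 in *Dll4*-zero cells, *Mmrn1* had 2 in each, *Ccl21a* had 2 in each under 1 of its IDs and 0 under the other, and *Pdpn* and *Reln* were at 0 in both sets. The part of lymphatic cells in this result was not tested. *Plvap*, the diaphragm protein of fenestrae and caveolae, was at 990, 1012, and 1008 CPM against 691, 514, and 643 CPM (fold 1.58, log2 0.66, adjusted p = 0.00034). The 3 *Dll4*-high sums lay close together and above all *Dll4*-zero sums, and the call was lost after thinning (adjusted p = 0.0507). The next 2 lists stand beside 1.08% higher and 0.862% lower over all 6384 genes. Of 17 *Aplnr*-type capillary genes tested, 2 were higher (*Plvap* and the phosphatase gene *Ptprb*) and 1 lower (*Sema3c*), with a median of -0.22. Of 15 VEGF and angiopoietin genes, 3 were higher (*Eng*, *Ptprb*, and *Unc5b*) and 1 was lower (*Vegfc*). *Eng* (log2 0.54) lost its call without mouse 2 or mouse 4, and *Ptprb* (log2 0.43) without mouse 3.

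*Vegfc* had the lowest fold of all genes called. *Vegfc*, the growth factor that activates VEGFR3 (chr8:54077606-54187096, plus strand), was at 23.5, 3.12, and 7.28 CPM in *Dll4*-high cells and at 129, 104, and 78.1 CPM in *Dll4*-zero cells, 7.42-fold lower (log2 -2.89, SE 0.357, adjusted p = 6.80e-07). The groups did not overlap. It rested on 20 UMIs in *Dll4*-high and 101 UMIs in *Dll4*-zero cells, and 7.09% against 26.1% of cells held a UMI, although the *Dll4*-high cells were deeper. In B cells the share was 0.168%.

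The lower genes also included *Sema3c*, *Scn7a*, *Fbln2*, *Slc6a6*, and *Adamts1*. *Sema3c*, a secreted guidance protein (chr5:17574281-17730268, plus strand), was at 1560, 1321, and 1457 CPM against 2921, 2460, and 3083 CPM (log2 -0.98, SE 0.1002, adjusted p = 2.07e-08). *Scn7a*, an atypical sodium channel of lung capillary ECs, was at 3097, 2774, and 3377 CPM against 5195, 4544, and 5192 CPM (log2 -0.71). Both fell in 3 of 3 mice without overlap. *Fbln2*, an extracellular matrix fibulin, was at 104, 87.5, and 109 CPM against 311, 246, and 258 CPM (log2 -1.45). *Slc6a6*, the taurine transporter, was at 373, 337, and 432 CPM against 827, 787, and 896 CPM (log2 -1.15). *Adamts1*, a secreted protease of the ADAMTS family, was at 270, 316, and 245 CPM against 564, 563, and 674 CPM (log2 -1.15). *Eln*, the elastin gene, was at 508, 528, and 595 CPM against 1096, 749, and 940 CPM (log2 -0.81). *Thbd*, the anticoagulant receptor thrombomodulin, was at 794, 984, and 731 CPM against 1607, 1236, and 1226 CPM (log2 -0.73), and it was lost without mouse 2. Over all 6384 genes, 1.08% were higher and 0.862% lower. Of 18 *Car4*-type genes tested, 1 was higher (*Cyp4b1*, a cytochrome P450 gene, log2 0.97) and 3 were lower (*Scn7a*, *Prx*, and *Ly6a*). The last 2 lost their call without mouse 4, and *Ly6a* also without mouse 2 and with DESeq2.

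Most other groups held few or no calls, as did the 6384 genes as a whole, of which 1.94% were called. The 6 lipid uptake genes, 16 immediate early and heat shock genes, 5 hypoxia and glycolysis genes, and 7 MHC genes tested held 0 calls by edgeR or DESeq2. DESeq2 gave an adjusted p for 5, 11, 4, and 7 of them. At an unadjusted p under 0.05, 1 hypoxia gene (*Hilpda*) and 2 MHC genes (*B2m* and *H2-T23*) were found. Of 25 endothelial transcription factors, 0 were higher and 2 lower (*Foxp1*, log2 -0.52, and *Mef2c*, log2 -0.56). The call of *Foxp1* was lost without mouse 2, and that of *Mef2c* without any 1 of the 3 mice, with DESeq2, and with paired cells. Of 17 shear and nitric oxide genes, 1 was lower (*Thbd*). Of 12 interferon response genes, 2 were lower (*Gbp2*, log2 -1.29, and *Gbp4*, log2 -0.79), and both calls were lost without mouse 4 and with DESeq2 (adjusted p = 0.571 and 0.2496). *Gbp2* was at 64.6, 84.3, and 63.1 CPM against 134, 71.1, and 260 CPM, lower in 2 of 3 mice, and *Gbp4* was also lost without mouse 2 and with paired cells. Of 5 venous genes, 1 was lower (*Prss23*, log2 -1.17), which was lost without mouse 2 and with dividing cells left out. Of 11 pan-endothelial genes, *Eng* was higher and *Emcn* (log2 -0.46) lower, the latter lost without any 1 of the 3 mice, with DESeq2, and with paired cells.

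Markers of epithelial, immune, and blood cells were low and close in both sets, and the sum of stromal markers differed, with most of its UMIs from *Eln* and *Mfap2*. The 10 AT2 markers summed to 91.02 ± 38.5 CPM in *Dll4*-high and 91.7 ± 15.1 CPM in *Dll4*-zero cells, with *Lyz2* the most abundant and *Epcam* at 0 in *Dll4*-high cells. The 7 AT1 markers summed to 73.7 ± 1.12 against 59.8 ± 13.9 CPM, the 15 immune markers to 56.6 ± 26.9 against 55.1 ± 14.7 CPM, and the 8 red cell and platelet markers to 15.0 ± 11.5 against 17.8 ± 13.4 CPM. None of the AT2, immune, or red cell and platelet markers passed the filter on low counts. *Hopx* was the 1 AT1 marker tested and was not called. Stromal markers summed to 933, 918, and 1015 CPM in *Dll4*-high against 1727, 1290, and 1432 CPM in *Dll4*-zero cells, without overlap. *Eln* and *Mfap2* gave 760 and 529 of 1348 UMIs in *Dll4*-high cells, and 939 and 467 of 1481 in *Dll4*-zero cells. No other stromal marker held more than 24 UMIs in either set. *Eln*, also on the arterial list, had 11250 UMIs in *Gja5* cells. Of the 2 stromal markers tested, *Eln* was the 1 called, and *Mfap2* was not (log2 -0.36, adjusted p = 0.277). The part of stromal cells in the result for *Eln* was not tested. The doublet scores marked 0 *Dll4*-high cells and 1 *Dll4*-zero cell.

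Some genes of mitosis were higher in *Dll4*-high cells, and most of these calls rested on mouse 2. Of 20 cell cycle genes tested, 9 were higher, 0 were lower, and 11 were not called, beside 1.08% higher and 0.862% lower over all 6384 genes. Their median log2 fold change was 0.80 against -0.00 over all genes. Genes near 0 in *Dll4*-zero cells, such as *Tpx2* (0, 0, and 7.81 CPM), passed the filter on low counts only through the *Dll4*-high sums. This count and median thus follow in part from the filter and are a description only. *Mki67*, the proliferation marker Ki-67 (chr7:135689784-135716361, minus strand), was at 305, 106, and 136 CPM against 7.45, 5.47, and 52.1 CPM (log2 2.97, SE 0.395, adjusted p = 3.21e-06). *Cenpf*, a kinetochore gene, was at 314, 49.98, and 107 CPM against 7.45, 5.47, and 41.7 CPM (log2 3.07, adjusted p = 7.16e-05), and without mouse 2 its log2 fold change was 1.44 (adjusted p = 0.152). *Top2a*, the topoisomerase of mitotic chromosomes, was at 263, 128, and 141 CPM against 4.97, 43.7, and 83.3 CPM (log2 2.09). The groups of these 3 genes were apart, and mouse 2 was the highest of the *Dll4*-high sums in each. *Tpx2*, a spindle assembly factor, had 83 UMIs in *Dll4*-high cells against 3 in *Dll4*-zero cells, a ratio of 19.0 (exact 95% interval 6.27 to 93.9, counting error only). The other calls were *Ccnb2*, *Cdk1*, *Ube2c*, *Cenpe*, and *Hmgb2*. *Ube2c* (log2 2.63) and *Cenpe* (log2 2.08) had overlapping groups. With *Dll4* of at most 1 as the low set, they fell to 1.09 (adjusted p = 0.263, edgeR) and 0.986 (adjusted p = 0.250, edgeR). The replication-dependent histone genes *Hist1h2ap* (86 against 1 UMI) and *Hist1h2ae* (53 against 1 UMI) led by fold, but they belong to a family of near-identical copies whose reads the counting could split. *Hist1h2ap* averaged 61.9 CPM in *Dll4*-high cells and 83.8 CPM in cells with 1 *Dll4* UMI (65.0, 187, and 0 CPM). With *Dll4* of at most 1 as the low set, its log2 fold change fell from 5.50 to 1.12 and its call was lost (adjusted p = 0.254, edgeR). Without mouse 2, 1 of the 9 cell cycle calls remained (*Mki67*), 6 were lost, and 2 could not be fitted. DESeq2 gave an adjusted p for 4 of the 9 and called 0, with *Mki67* at an adjusted p of 0.135, and with paired cells 2 were called (*Mki67* and *Cenpf*), 2 were lost, and 5 could not be fitted.

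The promoters of these genes were searched for known cell cycle motifs, and 3 that hold both are shown beside the values. In the windows of 250 bases before the start in the RefSeq table (GRCm38.p6), TTTGAA, the cell cycle genes homology region (CHR), was searched on both strands. It was found in 6 of 8 promoters of the 8 called cell cycle genes with an entry (75.0%), against 15.99% of all 32851 promoters. CCAAT, searched the same way and not overlapping the first, was found in 8 of 8 (100%), against 33.8% of all promoters. The genes came from a list of cell cycle genes, so these shares describe the list and not the *Dll4*-high cells. Cell cycle genes that were not called were not searched as a set. Over the 61 promoters of all genes called higher, TTTGAA was found in 22.95% and CCAAT in 39.3%. Over the 65 promoters of all genes called lower, the shares were 16.9% and 36.9%. *Tpx2* has no entry. The sequences run 5′ to 3′ on the strand of the gene, and capitals mark both motifs on either strand.
Mki67 (chr7:135716452-135716587, minus strand): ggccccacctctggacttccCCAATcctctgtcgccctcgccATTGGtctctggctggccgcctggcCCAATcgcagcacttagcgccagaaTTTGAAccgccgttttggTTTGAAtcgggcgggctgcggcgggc
Ccnb2 (chr9:70421555-70421741, minus strand): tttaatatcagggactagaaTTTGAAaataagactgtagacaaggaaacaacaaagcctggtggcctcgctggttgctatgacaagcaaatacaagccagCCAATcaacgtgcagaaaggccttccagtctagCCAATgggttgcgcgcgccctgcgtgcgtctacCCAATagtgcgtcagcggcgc
Cdk1 (chr10:69352913-69353140, minus strand): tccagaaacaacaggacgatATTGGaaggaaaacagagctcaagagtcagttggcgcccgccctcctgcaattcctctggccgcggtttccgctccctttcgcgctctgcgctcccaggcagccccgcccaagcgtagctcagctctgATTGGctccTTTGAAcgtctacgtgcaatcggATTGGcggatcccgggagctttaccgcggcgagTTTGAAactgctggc

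In *Mki67* the TTTGAA letters lie 116 and 98 bases before the start, in *Cdk1* 71 and 15 bases before it, and in *Ccnb2* 167 bases before it. A match describes letters and is no evidence of binding. For the arterial and Notch target genes called higher, TGGGAA, the core letters bound by RBPJ, was searched too. It was found in 1 of 8 promoters of the 6 genes with an entry (12.5%, in *Cxcl12*), against 21.6% of all promoters, and *Hey1* has no entry. That site is shown because *Cxcl12* was among the higher arterial genes, with TGGGAA in capitals 170 bases before the start.
Cxcl12 (chr6:117168345-117168390, plus strand): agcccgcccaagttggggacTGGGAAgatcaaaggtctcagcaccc

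Mitosis was carried by a minority of cells. A cell was counted as dividing where it held at least 2 UMIs over *Mki67*, *Top2a*, *Cenpf*, *Ube2c*, *Ccnb2*, *Cdk1*, *Tpx2*, and *Birc5*, a list chosen after the calls were seen, so no p is given. In *Dll4*-high cells 12 of 51, 6 of 28, and 6 of 48 cells were dividing in mice 2, 3, and 4 (23.5%, 21.4%, and 12.5%). In *Dll4*-zero cells the shares were 3.28%, 4.00%, and 7.14%, all below the lowest *Dll4*-high value. With every cell thinned to 3000 UMIs, the shares were 17.6%, 7.14%, and 10.6% against 1.92%, 4.35%, and 5.66%. These are 9 of 51, 2 of 28, and 5 of 47 cells against 1 of 52, 1 of 23, and 3 of 53, so the distance in mouse 3 rests on few cells. Cells with 1 *Dll4* UMI were at 13.8% ± 1.74% (12.6% ± 0.878% thinned), within 1 SD of the *Dll4*-high mean of 19.2% ± 5.86% (11.8% ± 5.35% thinned). *Gja5* cells were at 4.26% ± 2.14%. Venous ECs were at 10.5% ± 9.47%, with mouse 2 at 21.4%, inside the range of the *Dll4*-high cells. With the dividing cells left out of both sets, 47 genes were higher and 35 lower, and 74 of the 104 calls that could be fitted again were kept. *Hey1* stayed called (adjusted p = 5.23e-11), all 7 higher arterial genes stayed called, and *Hmgb2* turned to a log2 fold change of -0.50.

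**Figure D3:**
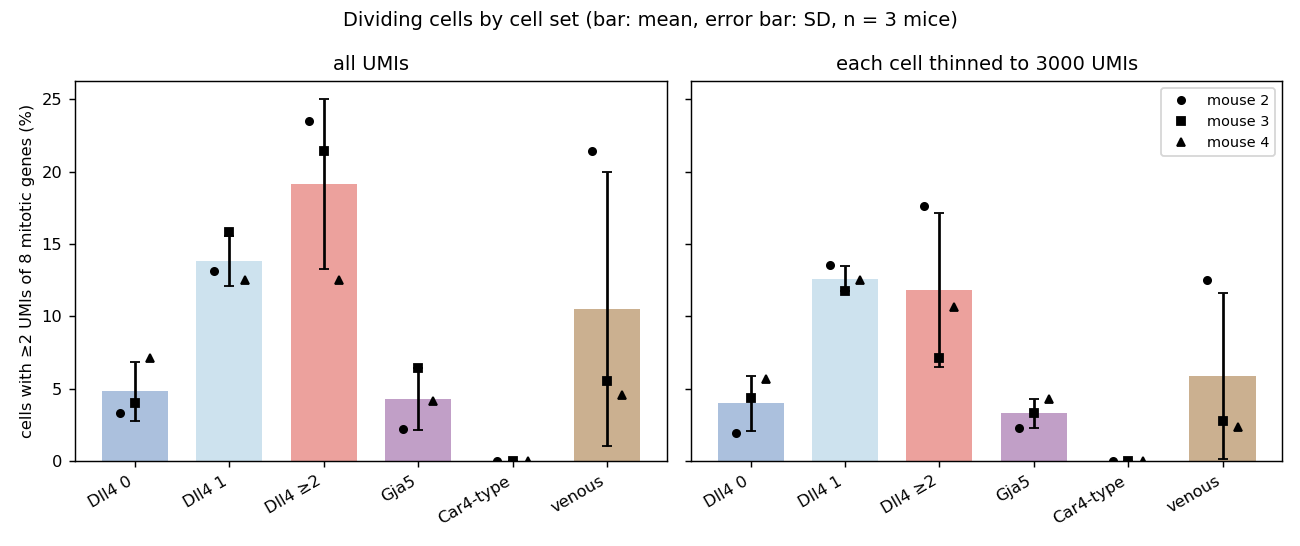
Share of cells with at least 2 UMIs of 8 mitotic genes (y axis, percent) in 6 EC sets (x axis), from all UMIs on the left and with each cell thinned to 3000 UMIs on the right, with 1 point per mouse, the mean as a bar, and the SD as an error bar (n = 3). *Dll4*-high cells average 19.2% and *Dll4*-zero cells 4.81% from all UMIs, and 11.8% and 3.98% after thinning.

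**Figure D4:**
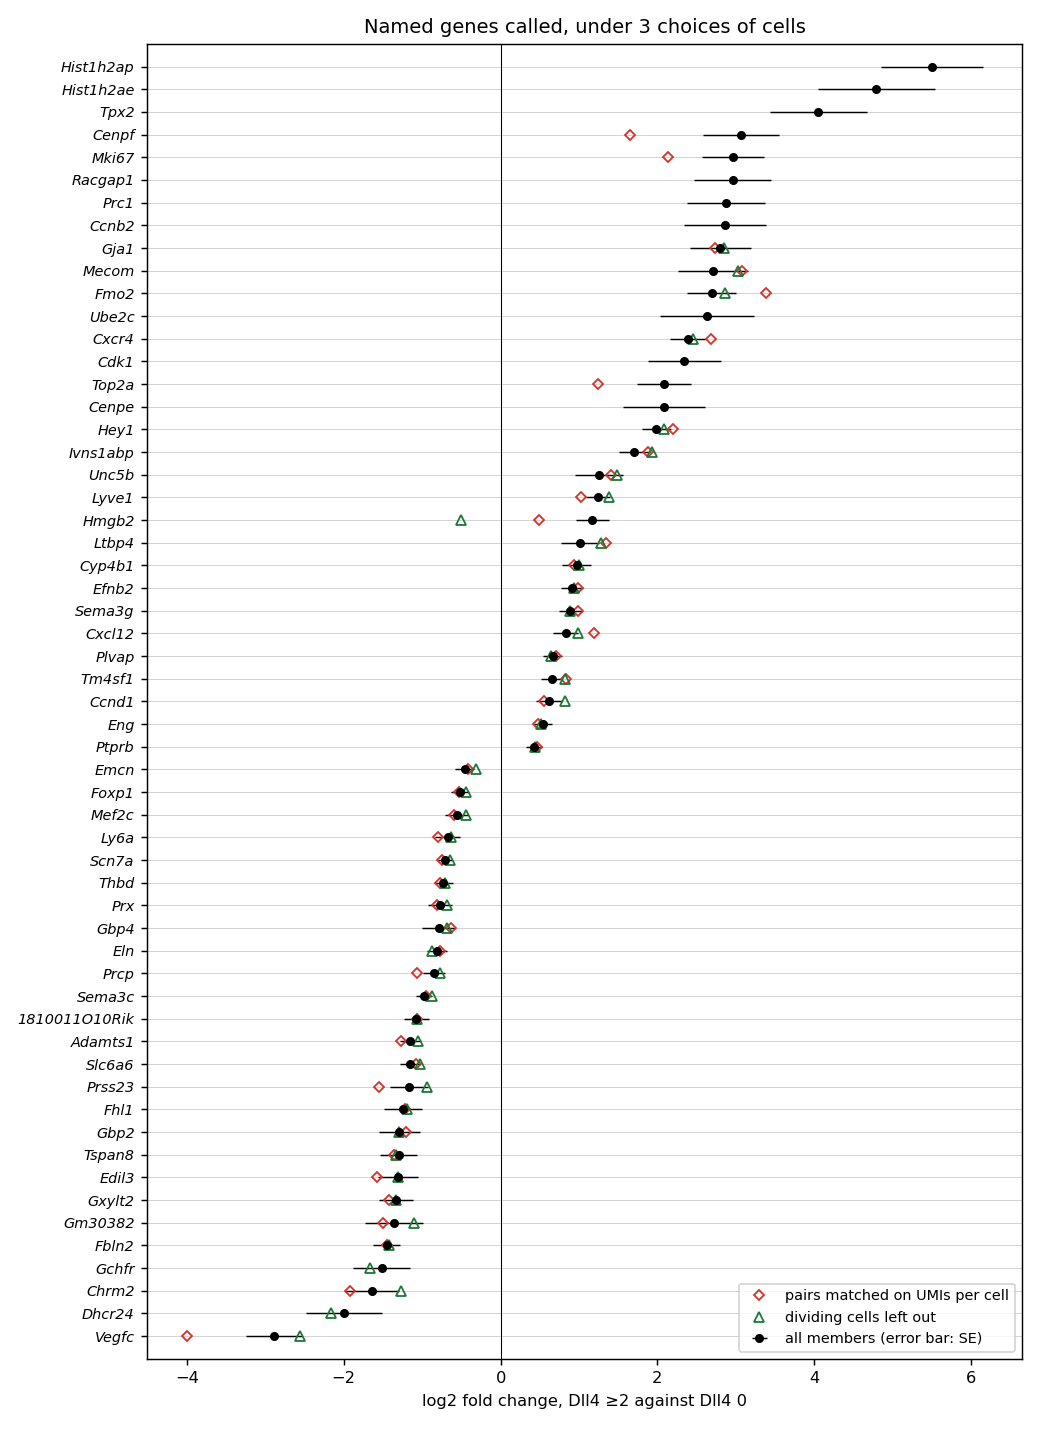
Log2 fold change of *Dll4*-high against *Dll4*-zero cells (x axis) for the named genes that were called (y axis), from all members (black, error bar SE), from pairs matched on UMIs (red diamonds), and with dividing cells left out (green triangles). *Hey1*, *Cxcr4*, and *Gja1* keep their place under all 3 choices, while *Mki67*, *Cenpf*, *Top2a*, and *Hmgb2* lie lower with matched pairs.

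Levels were also set out by the number of *Dll4* UMIs per cell, in classes of 0, 1, 2, 3 or 4, and 5 or more (142, 89, 44, 45, and 38 cells). Depth rose over these classes too, with medians of 6571, 7011, 7434.5, 9532, and 10524.5 UMIs. The classes are a description, with no test. Mean *Hey1* was 74.7, 187, 227, 264, and 414 CPM, and mean *Cxcr4* was 77.4, 145, 258, 302, and 570 CPM. Both were higher in each class than in the one before. *Gja1* stayed at 16.9, 25.3, and 22.8 CPM up to 2 UMIs and was at 72.3 and 174 CPM above. *Sema3c* was at 2822, 2178, 1626, 1773, and 1044 CPM, and *Scn7a* at 4977, 4440, 3516, 3346, and 2521 CPM. *Mki67* had no such order, with 21.7, 181, 65.3, 158, and 281 CPM and an SD of 134 CPM in the cells with 1 UMI.

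The cells just inside and just outside the limit of 2 UMIs differed in some of these genes more than in others. Between 1 and 2 *Dll4* UMIs, mean *Hey1* was 187 ± 37.1 and 227 ± 45.1 CPM, and *Plvap* 926 ± 98.1 and 826 ± 90.5 CPM, within the spread of the mice. *Efnb2* was 516 ± 75.7 and 829 ± 94.7 CPM, *Vegfc* 54.5 ± 26.9 and 9.97 ± 9.97 CPM, and *Fmo2* 45.5 ± 7.81 and 146 ± 70.2 CPM. For *Hey1* and *Plvap* the larger step was thus between 0 and 1 UMI, and for *Efnb2* between 1 and 2.

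**Figure D5:**
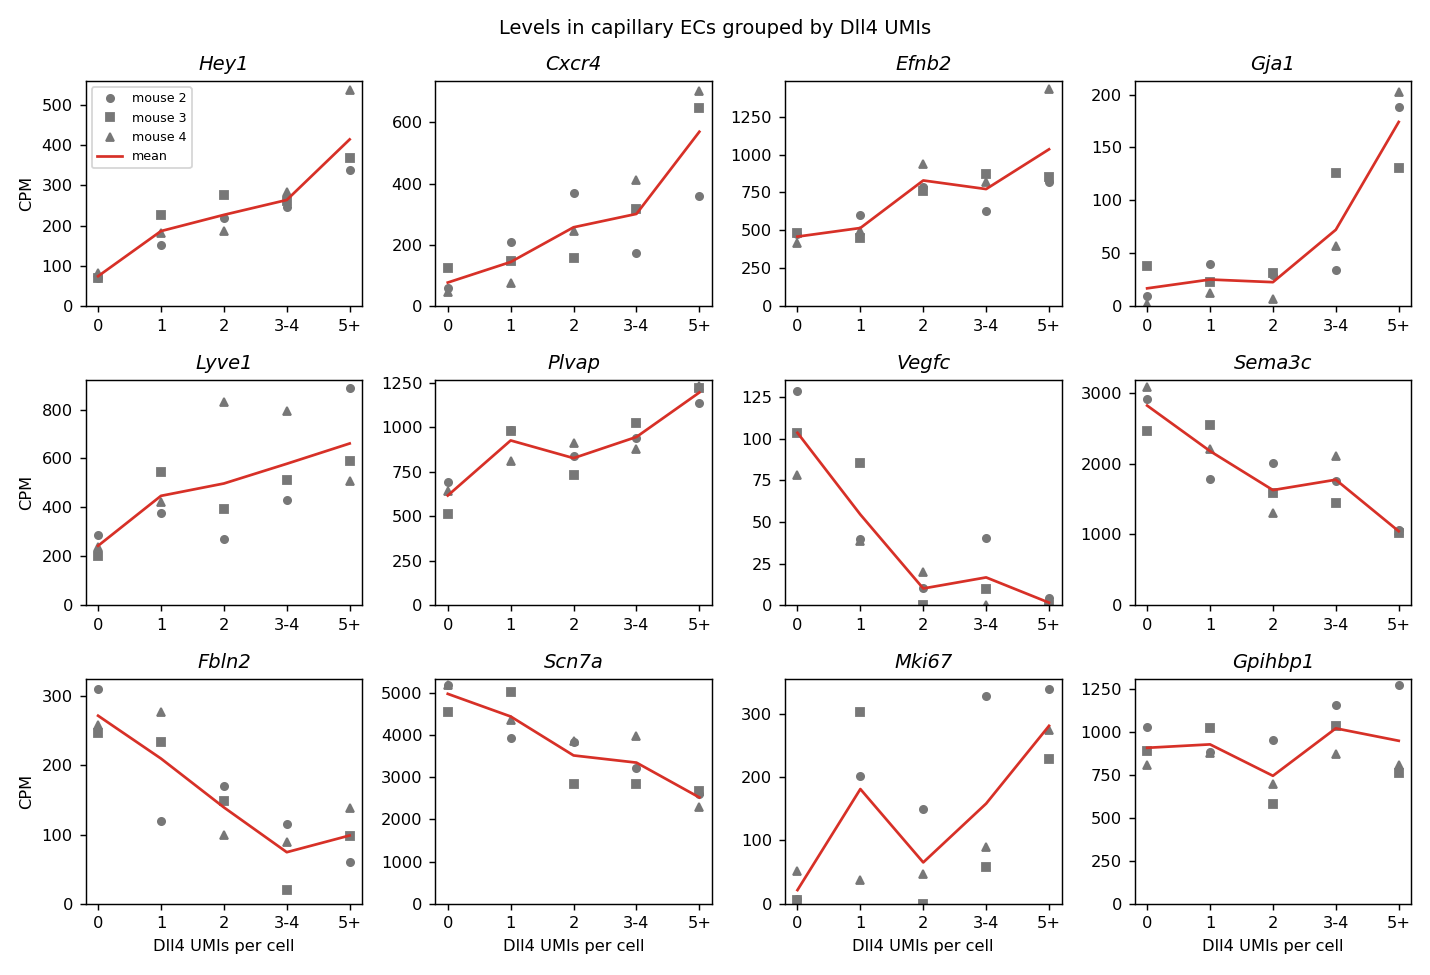
CPM (y axis) of 12 genes in capillary ECs grouped by their *Dll4* UMIs per cell (x axis: 0, 1, 2, 3 or 4, and 5 or more), with 1 point per mouse and the mean of 3 mice as a line. *Hey1* and *Cxcr4* are higher in each class than in the one before, *Sema3c* and *Scn7a* end lower than they start, and *Gpihbp1* stays between 746 and 1022 CPM.

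*Dll4*-high capillary cells differed in many genes from the *Gja5* cells, which held *Dll4* at a higher level. Of 7125 genes tested, 585 (8.21%) were higher and 661 (9.28%) lower in *Dll4*-high cells, 1246 or 17.5% in all. With library size in place of TMM, 739 were higher and 564 lower, so which direction held more calls turned with the scaling. This comparison uses the same *Dll4*-high sums as the one with *Dll4*-zero cells. Of 24 arterial genes tested, 0 were higher and 21 lower, with a median log2 fold change of -2.01 against 0.00 over all genes. The *Gja5* cells were chosen on an arterial gene that the gate held to at most 1 UMI in *Dll4*-high cells. Against *Dll4*-zero cells 18 arterial genes were tested, and *Hey2* (2 UMIs against 104 in *Gja5* cells) is among the 24 through the *Gja5* cells. This count and median thus follow in part from the choice of cells and are a description only. The *Gja5* cells were not purely arterial, since they held 275, 154, and 0 CPM of the venous gene *Slc6a2* in mice 2, 3, and 4. *Vwf*, at 3389, 3491, and 2853 CPM, did not follow *Slc6a2* and does not tell whether venous cells were present. In mouse 4, where *Slc6a2* was at 0, *Mgp* was at 6347 CPM against 72.8 CPM in *Dll4*-high cells.

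The lowest folds among genes of at least 20 CPM included *Sfrp1*, *Mgp*, *Cytl1*, and *Cpe*. *Mgp* had a log2 fold change of -7.42 (adjusted p = 5.44e-19), *Cytl1* of -7.33, and *Cpe* of -6.43. Of other genes of the arterial list, *Fbln5* had -5.95 and *Eln* -3.88. *Sfrp1*, a secreted Wnt inhibitor, had 0 UMIs in *Dll4*-high cells and 363 in *Gja5* cells, at least 113-fold lower at a floor of 3 counts over the set. *Hey2* (log2 -5.45), *Gkn3* (log2 -5.96), and the Wnt regulator *Dkk2* (log2 -6.09), all known from arterial ECs, were near 0 as well. *Jag1* was at 35.4 ± 2.75 CPM against 157 ± 20.3 CPM (log2 -2.25, adjusted p = 3.85e-09).

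Notch targets divided between the sets. Of 12 tested, 4 were higher and 7 lower in *Dll4*-high cells than in *Gja5* cells. *Hey1* was at 304 ± 29.2 CPM against 415 ± 41.5 CPM (log2 -0.54, adjusted p = 0.00227), a call lost without mouse 2 or mouse 3 and after thinning. *Efnb2* was at 872 ± 179 against 1551 ± 81.6 CPM (log2 -0.92) and *Nrarp* at 58.4 ± 7.55 against 151 ± 22.1 CPM (log2 -1.41). *Ccnd1* (log2 1.52) and *Bcl6b*, a transcriptional repressor of ECs (log2 1.12), were higher. *Cxcr4* was at 370 ± 94.6 against 425 ± 30.2 CPM (log2 -0.32, adjusted p = 0.164). *Gja1* was higher in *Dll4*-high cells than in *Gja5* cells, at 86.6, 100, and 87.4 CPM against 47.9, 21.7, and 20.1 CPM (log2 1.51, adjusted p = 0.00011). *Gja1* was named here after its values were seen. *Notch1* (log2 -0.73) and *Notch4* (log2 -0.39) were lower, the latter lost without any 1 of the 3 mice, and *Lfng*, which modifies Notch receptors in favor of DLL ligands, was higher (log2 1.15) but lost after thinning (adjusted p = 0.0553).

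The lists of capillary genes held more higher than lower genes in this comparison. The gate asked for at least 2 UMIs of *Aplnr* and *Kit* in *Dll4*-high cells, and no such limit was set for *Gja5* cells. These counts and medians thus follow in part from the choice of cells and are a description only. Of 6 lipid uptake genes, 4 were higher and 0 lower, with a median of 1.09. *Gpihbp1* was at 918 ± 217 against 316 ± 37.9 CPM (log2 1.47), *Lpl*, lipoprotein lipase, at 181 ± 8.44 against 52.9 ± 14.2 CPM (log2 1.68), and the fatty acid transporter *Cd36* at 1702 ± 90.2 against 637 ± 30.3 CPM (log2 1.33). Of 17 *Aplnr*-type genes, 10 were higher and 2 lower, and of 19 *Car4*-type genes, 10 were higher and 2 lower. *Sox11*, a developmental transcription factor, was at 504 ± 7.54 against 68.2 ± 15.4 CPM (log2 2.78, adjusted p = 1.23e-13), among the smallest p of the higher genes. *Rgcc*, a regulator of the cell cycle, was at 263 ± 49.6 against 17.7 ± 16.4 CPM (log2 3.74). *Sema5a* had 51 UMIs against 2, a ratio of 27.2 (exact 95% interval 7.16 to 231). *Kdr*, the VEGF receptor, was at 684 ± 57.0 against 314 ± 97.4 CPM (log2 1.04).

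The remaining lists are given by their counts of calls, beside 8.21% higher and 9.28% lower over all 7125 genes tested. Of 14 tip cell genes, 8 were higher and 3 lower. The basement membrane collagens *Col4a1* (3489 ± 511 against 928 ± 103 CPM) and *Col4a2* each had a log2 fold change of 1.83, and *Pdgfb*, which recruits pericytes, of 1.37. *Esm1*, a tip cell gene, was at 11.7, 31.2, and 89.8 CPM against 122, 120, and 87.7 CPM (log2 -1.52, adjusted p = 0.00208), with mouse 4 at the level of the *Gja5* cells, and it was lost without mouse 2 or mouse 3, with DESeq2, and after thinning. Of 22 cell cycle genes, 17 were higher and 0 lower, with a median of 1.34. Here too, genes low in *Gja5* cells, such as *Tpx2* (83 UMIs against 15), were tested only through the *Dll4*-high sums. DESeq2 called 3 of the 22, and 14 of the 17 calls were lost with it, *Mki67* and *Top2a* among them. Without mouse 2, 8 genes were called, and with dividing cells left out 1 of 9 that could be fitted. Of 17 immediate early and heat shock genes, 0 were higher and 8 lower, such as *Egr1* (log2 -1.96). Of 8 hypoxia and glycolysis genes, 5 were lower, such as *Ndrg1* (log2 -3.56) and *Vegfa* (log2 -1.09). Of 14 interferon response genes, 4 were lower, of which *Gbp4* and *Isg15* were lost with DESeq2, the first also without mouse 3 and the second without mouse 2 or mouse 4. Of 7 MHC genes, 0 were called by edgeR or DESeq2 and 1 (*H2-T23*) had an unadjusted p under 0.05. Of 9 venous genes, 7 were lower and 1 higher, of 26 transcription factors, 4 were lower and 8 higher, of 16 shear and nitric oxide genes, 5 were lower and 4 higher, of 15 VEGF and angiopoietin genes, 6 were lower and 4 higher, and of 17 Notch receptors and modulators, 4 were lower and 4 higher. Of the last, DESeq2 called 5, with *Neurl1b*, *Adam10*, and *Notch4* lost, and *Maml3* and *Numb* were lost without mouse 3. The 1 ligand called of 3 was *Jag1*. Of 11 pan-endothelial genes, 4 were higher and 2 lower, and DESeq2 called 3. *Tek*, a lower gene of this list and of the VEGF and angiopoietin list, lost its call with DESeq2, with library size only, and without any 1 of the 3 mice, and *Tmem100*, a higher gene, without mouse 2 or mouse 4. DESeq2 ended 4 calls among the shear and nitric oxide genes, 3 among tip cell genes, 2 each among venous, *Car4*-type, and VEGF and angiopoietin genes, and 1 each among arterial and *Aplnr*-type genes. Of markers of other cells, 0 of 2 AT2 markers were called by edgeR or DESeq2 and 0 had an unadjusted p under 0.05, *Hopx* (log2 1.26) was the 1 AT1 marker tested and was higher but lost without mouse 2 and with DESeq2, *Eln* and *Col3a1* were lower and *Mfap2* higher among 3 stromal markers, and *Flt4* was higher and *Lyve1* (log2 -1.49) lower of 2 lymphatic markers.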

How the data were processed

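scRNA-Seq libraries were made from the whole lungs of 3 mice with the 10x v3 3′ kit and processed with Cell Ranger 3.0.2 on mm10, per the submitters' processing notes. The authors deposited 1 table of unnormalized UMI counts per mouse (28692 features). The series describes 5677 cells, the tables hold 9644, and 7642 remained once cells with fewer than 200 genes or more than 20% mitochondrial UMIs were dropped. The filter behind the stated number is not given in the sources used here. Positions are from GENCODE M21 (GRCm38), which matched 28339 gene IDs, and promoters from the RefSeq table (GRCm38.p6).

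Counts were summed per mouse and cell set and compared with edgeR 4.0.16 (limma 3.58.1, R 4.3.3; quasi-likelihood test, TMM, filterByExpr, Benjamini-Hochberg over all genes tested, threshold 0.05). DESeq2 1.42.0 was an alternative. The 15 gate genes stayed in the library sizes and were not tested, except that their levels are given. Doublets were scored with scanpy 1.11.5 (0.8% per 1000 cells marked) and kept. Other steps used Python 3.11.15, numpy 2.4.6, pandas 2.3.3, scipy 1.17.1, and matplotlib 3.10.9. On simulated counts (6116 genes) the test recovered 67.0% of log2 changes of 1 and 97.8% of 2, and called 0.084% of unchanged genes, for *Dll4*-high against *Dll4*-zero cells.

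The sets of a mouse share an animal, and the deviations of their sums correlated with r of 0.0458, 0.0595, and 0.142 in mice 2, 3, and 4 (4032 genes) against *Dll4*-zero cells, and 0.127, 0.0758, and 0.0823 (4675 genes) against *Gja5* cells, so a fit with the mouse as block was run too.

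The members and the 24 gene lists were chosen with earlier results of these data known. Named genes were Notch genes, the 10 largest folds in each direction (mean of at least 20 CPM, same direction in 3 of 3 mice), up to 4 called genes per list, and the markers. Further called list members and the 10 smallest p in each direction were added after values were seen. Alternatives were DESeq2, no TMM, no filter, the block, leaving out each mouse, pairs matched on UMIs (within 0.1 on the log10 scale), thinning to 3000 UMIs, at least 2000 UMIs with 1% mitochondrial, at most 10% mitochondrial, doublets removed, *Dll4* limits of 3 or more and of 1 or fewer, and dividing cells left out, the last added after seeing the data.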

Additional observations from a re-analysis of the deposited data

How the results depend on the processing

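The limits are 3 mice, 127 cells, and few UMIs per gene. The depth of the sets differed. The share of gate cells that were *Dll4*-high was 36.1%, 38.6% at most 10% mitochondrial UMIs, and 33.2% without dividing cells. Against *Dll4*-zero cells, the 69 higher genes became 26 with DESeq2 (which gave an adjusted p for 3537 of 6384 genes), 145 with no filter on low counts, 21 after thinning, and 34 to 69 when 1 mouse was left out. The 55 lower genes became 27 with DESeq2, 30 after thinning, 35 without dividing cells, and 28 to 48 when 1 mouse was left out. Without mouse 2, 62 genes were called, 57 of them among the 124. Higher genes made up 55.6% of calls, 41.2% after thinning, and 65.6% with no filter. Against *Gja5* cells, the 585 higher genes became 354 with DESeq2, 251 after thinning, and 374 to 481 when 1 mouse was left out, and the 661 lower genes became 284 after thinning and 473 to 616 when 1 mouse was left out. Thinning tests fewer genes (3295 and 2971). Other causes were not tested.

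With the mouse as block (the pairing of sums of 1 animal), 71 genes were higher and 55 lower against *Dll4*-zero cells, and 618 and 690 against *Gja5* cells. Among named genes the block changed 1 call, *Gm30382* (log2 -1.36 without the block, adjusted p = 0.0539 with it, edgeR).

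Of the values of named genes under the alternatives, 968 kept direction and side of the threshold, 90 lost their call, 1 gained it (*Hilpda* with matched pairs, log2 0.66, adjusted p = 0.0382, edgeR), and 22 changed sign against *Dll4*-zero cells. Against *Gja5* cells the numbers were 1424, 64, 0, and 6. Only *Hmgb2* among these sign changes was called in the main comparison, and it turned to -0.50 without dividing cells. The other sign changes, all of genes that were not called, were on the log2 scale in *Gpihbp1* (-0.101 to 0.0829 when 1 mouse was left out, -0.108 with matched pairs, -0.286 thinned, -0.0245 at most 10% mitochondrial), *Car4* (-0.733 to 0.181 when 1 mouse was left out, 0.213 with *Dll4* of at most 1 as the low set), *Pecam1* (-0.0498 to 0.0184 when 1 mouse was left out, 0.00317 with library size only, 0.0113 with *Dll4* of at least 3, 0.00847 without dividing cells), *H2-D1* (-0.0641 to 0.0939 when 1 mouse was left out, -0.130 with matched pairs, -0.0228 thinned), *Hopx* (-0.224 to 0.625 when 1 mouse was left out, -0.0555 with matched pairs), *Hspa8* (-0.173 to 0.0217 when 1 mouse was left out, 0.00368 without dividing cells), *Cd36* (-0.109 to 0.0373 when 1 mouse was left out), and *Adam10* (-0.0315 thinned). Against *Gja5* cells they were in *B2m* (-0.0961 to 0.00442 when 1 mouse was left out, 0.0305 with library size only), *Lyz2* (-0.541 to 0.531 when 1 mouse was left out), and *Sftpa1* (-0.121 to 0.151 when mouse 2 or 3 was left out, 0.00458 with library size only, 0.0539 with *Dll4* of at least 3).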

Other observations

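Some of the higher genes lay outside every list and are given here as values, chosen after they were seen. *Osmr*, the receptor of oncostatin M, was at 69.0, 68.7, and 92.3 CPM in *Dll4*-high cells against 12.4, 21.9, and 20.8 CPM in *Dll4*-zero cells (log2 2.08, adjusted p = 0.000111, edgeR), and *Fn1*, the fibronectin gene, at 71.9, 53.1, and 107 CPM against 17.4, 43.7, and 7.81 CPM (log2 2.02, adjusted p = 0.000852). *Car2*, a cytosolic carbonic anhydrase, was at 420, 534, and 430 CPM against 278, 153, and 206 CPM (log2 1.02, adjusted p = 7.13e-05). *Smad6*, an inhibitor of BMP signaling (log2 0.82, adjusted p = 0.00199), and *Efna1*, an ephrin ligand (log2 0.79, adjusted p = 0.00659), were higher as well. None of these 5 genes had overlapping groups. Set beside *Gja5* cells, in which the same *Dll4*-high sums were used, *Car2* had a log2 difference of 1.64, while *Osmr*, *Fn1*, *Smad6*, and *Efna1* had -1.27, -2.21, -1.21, and -1.06.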
